A study of Mus musculus with 96 samples.

Results

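The hippocampus and the cerebellum of the same 4 young mice were compared, as 8 of the 96 bulk mRNA-seq libraries of the series. The libraries were chosen by the region, age, treatment and experiment in their labels, 4 from each region, and the animal numbers 12, 14, 17 and 20 occur in both regions, so that each mouse gave 1 library of each. All 4 mice were C57BL/6J males labelled naive, a group that received neither the PBS nor the young plasma injections given elsewhere in the study. Their labelled age was 2 months, whereas the design text of the series gives 3 months for young mice. RNA of homogenized tissue was amplified by Smart-Seq2, which primes on poly(A) tails, and made into libraries without strand information. A repeat of the comparison used naive C57BL/6J males of 18 months, with 3 hippocampus and 3 cerebellum libraries from 3 mice. The 4 cortex libraries of the young mice served as a check of the dissection. In every list of single-library values the mice stand in the order 12, 14, 17 and 20, and the unit is CPM, counts per 1000000 counts of the library, while fold changes also use TMM scaling (factors of 0.935 to 0.969 in the hippocampus, against 1.04 to 1.06 in the cerebellum).

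The hippocampus belongs to the forebrain and is built around glutamatergic neurons, the granule cells of the dentate gyrus and the pyramidal cells of the CA fields, with scattered GABAergic interneurons. Most cells of the cerebellum are small glutamatergic granule neurons, and its only output from the cortex runs through GABAergic Purkinje cells, which are wrapped by a specialized astrocyte, the Bergmann glia. Both regions also hold oligodendrocytes, their precursors, microglia and vessels. In bulk tissue, fewer cells of a type and less RNA per cell cannot be told apart, which holds for every difference below.

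Total counts were 1816018 to 16813520 in the hippocampus libraries and 3637025 to 5515064 in the cerebellum libraries. The lowest was the hippocampus of mouse 20 and the highest the hippocampus of mouse 14. Lars2 and Gm42418, loci at which ribosomal RNA is often counted, held 3.32 to 6.17% of the counts of these 8 libraries.

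The labels were checked with the regional markers Gabra6 and Prox1, and Emx1 was added after its values were seen. Gabra6, which encodes the alpha6 subunit of the GABA-A receptor and marks cerebellar granule neurons, had 0 counts in all 4 hippocampus libraries, against 544, 504, 503 and 462 CPM in the cerebellum. Emx1, a transcription factor of the dorsal forebrain, had 8.38, 20.9, 9.24 and 9.36 CPM in the hippocampus, against 0 in all 4 cerebellum libraries. The regions did not overlap for either gene. Gabra6 lies on chromosome 11 at 42306437 to 42321072 on the minus strand (GRCm38), and Prox1 on chromosome 1 at 190118035 to 190170714, also on the minus strand. Prox1, the transcription factor that defines dentate granule cells, did not separate the regions: it had 94.5, 17.2, 91.7 and 29.2 CPM in the hippocampus, against 68.2, 75.5, 67.6 and 69.7 CPM in the cerebellum. Its log2 fold change, hippocampus minus cerebellum, was -0.39 ± 0.41 (SE), with an adjusted p of 0.46, and the hippocampus values lay on both sides of the cerebellum values.

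The hippocampus libraries were not alike. C1ql2, a synaptic protein of dentate granule cells, had 70.6, 3.09, 54.1 and 21.5 CPM, and Fibcd1, a gene of CA1 pyramidal cells, had 188, 20.9, 181 and 117 CPM. Mouse 14 was lowest for both genes and mouse 20 the second lowest. Cux2, a gene of upper-layer cortical neurons, had 156 CPM in the library labelled hippocampus of mouse 14, against 20.6 to 48.5 CPM in the other 3. Over 17226 genes the log2 CPM of this library correlated better with the 4 cortex libraries (mean r = 0.984) than with the other hippocampus libraries (mean r = 0.961). For mice 12, 17 and 20 the order was the opposite, with 0.972, 0.971 and 0.963 for the other hippocampus libraries and 0.958, 0.959 and 0.953 for the cortex. With the hippocampus libraries of mice 14 and 20 left out, Prox1 was higher in the hippocampus, by 0.56 on the log2 scale, and passed the threshold. These were its lowest hippocampus libraries (17.2 and 29.2 CPM), so the rise follows from leaving them out. Without mouse 14 alone, in both regions, its log2 fold change was 0.21. Among the cerebellum libraries, that of mouse 20 was highest for Nrgn (26.8 CPM, against 0.907 to 2.55 CPM in the other 3) and Slc17a6 (70.3 CPM, against 16.7 to 21.9 CPM), genes of forebrain and thalamic or brainstem neurons, and the part of this in the results was not tested. The calls of Prox1, Slc17a6 and Fos changed without the hippocampus libraries of mice 14 and 20, and those of Prox1, Fos and Ttr without both mice, among the genes named here.

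**Figure D1:**
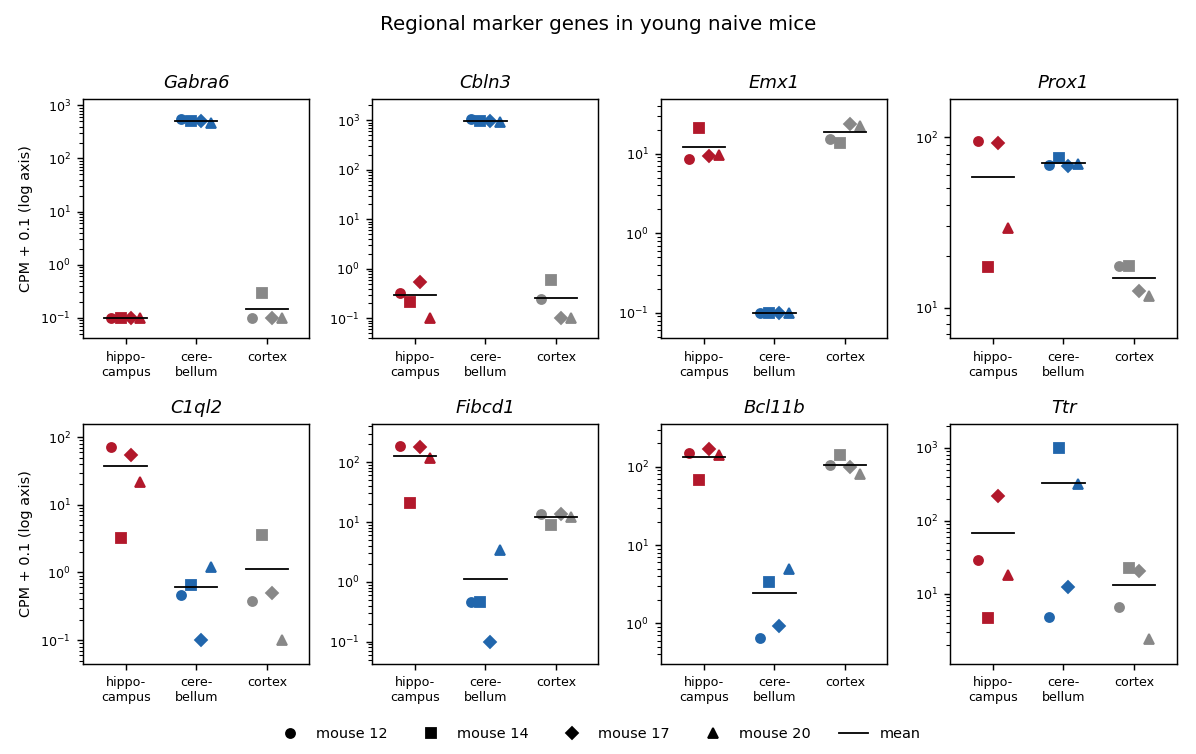
CPM plus 0.1 (log axis) of 8 regional marker genes in each library of the hippocampus, cerebellum and cortex of the 4 young naive mice, 1 symbol per mouse, with the mean as a line. Gabra6, Cbln3 and Emx1 separate the 2 regions in every mouse, the hippocampus library of mouse 14 (squares) lies near the cortex for Prox1, C1ql2 and Fibcd1, and Ttr of the choroid plexus varies most within a region.

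The bases upstream of Gabra6 are shown with those of Neurod6, which encodes a transcription factor of hippocampal pyramidal neurons. Those of Dner, which encodes a Notch ligand of Purkinje cells, are shown as well. Each gene differed between the regions and has a match to the letters marked. Each stretch is the 250 bases before the gene's start in RefSeq (GRCm38.p6), read 5′ to 3′ on the gene's own strand, and all 3 genes lie on the minus strand. Capitals mark, for Gabra6 at chr11:42321073-42321322 and for Neurod6 at chr6:55681264-55681513, the letters TTGGCA or their reverse complement TGCCAA, a half-site of the NFI transcription factors. For Dner at chr1:84696222-84696471 they mark AGGTCA or TGACCT, the half-site bound by ROR and other nuclear receptors.
Gabra6: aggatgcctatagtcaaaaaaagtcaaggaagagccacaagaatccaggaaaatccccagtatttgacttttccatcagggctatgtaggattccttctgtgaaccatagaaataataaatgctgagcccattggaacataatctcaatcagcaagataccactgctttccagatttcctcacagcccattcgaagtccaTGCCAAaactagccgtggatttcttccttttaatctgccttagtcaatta
Neurod6: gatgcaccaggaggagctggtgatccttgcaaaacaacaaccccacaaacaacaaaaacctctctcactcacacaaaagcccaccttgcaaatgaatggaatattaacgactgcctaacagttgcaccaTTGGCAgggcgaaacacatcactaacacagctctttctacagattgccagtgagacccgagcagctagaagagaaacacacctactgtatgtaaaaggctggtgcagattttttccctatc
Dner: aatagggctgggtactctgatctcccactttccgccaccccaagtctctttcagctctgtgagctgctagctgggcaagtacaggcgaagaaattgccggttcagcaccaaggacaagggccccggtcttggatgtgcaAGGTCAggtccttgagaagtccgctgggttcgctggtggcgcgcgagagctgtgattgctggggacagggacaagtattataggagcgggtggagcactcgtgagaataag
TTGGCA occurred, on either strand, in 12.5% of the 27025 promoter windows of this length, in 9.9% of the 10898 windows of genes tested, in 2 of the 12 windows found for the cerebellar granule neuron genes and in 2 of the 11 found for the CA pyramidal neuron genes. AGGTCA occurred in 13.8% of all windows, in 10.2% of those of genes tested and in 3 of the 9 found for the Purkinje genes. Gabra6, Neurod6 and Dner are among the genes of these lists with a match, so the matches shown are part of the choice and not a result. A match is a run of letters and was not tested as a binding site.

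Differences between the regions were found in neurons, glia and most receptor families. Of 15586 genes tested, 4185 (26.9%) were higher and 4109 (26.4%) lower in the hippocampus at an adjusted p under 0.05 (edgeR quasi-likelihood test with the mouse as a block). At a change of at least 2-fold the counts were 1912 (12.3%) higher and 1596 (10.2%) lower. Sizes written below as higher by, or lower, at a value are log2 fold changes, hippocampus minus cerebellum, with an SE. That SE was computed back as the absolute log2 fold change divided by the square root of the F statistic of the edgeR test. Each gene called higher or lower passed this test. The median log2 fold change of all genes tested was -0.01. Higher calls were 50.5% of all calls, and 37.8% when libraries were scaled by their totals alone, which moved the median of all genes at -0.15 on the log2 scale.

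The comparison was repeated in the mice of 18 months. There, 4740 (29.5%) of 16094 genes were higher and 4689 (29.1%) lower in the hippocampus. Of 3453 genes called past 2-fold in the young mice and tested at 18 months, 3450 had the same direction and 3333 were called again in it. Of all 8233 genes called in the young mice and tested at 18 months, 8144 kept their direction and 10 were called in the opposite one. The regional difference itself was tested between the ages, and 0 of 16720 genes (0%) passed in edgeR, with 980 at an unadjusted p under 0.05 and 5 called by DESeq2. With the young mice 14 and 20 left out, 88 genes passed.

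**Figure D2:**
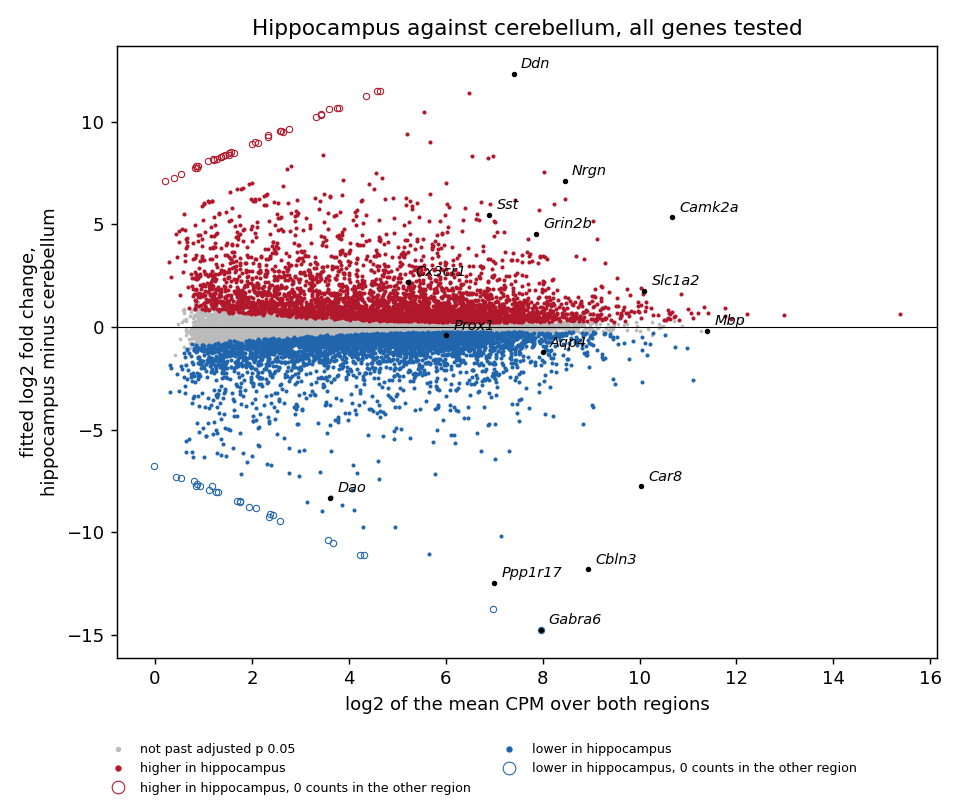
Fitted log2 fold change, hippocampus minus cerebellum, of the 15586 genes tested against the log2 of their mean CPM over both regions, each point a gene, red where higher and blue where lower in the hippocampus. Black points carry gene names, and open circles are genes with 0 counts in 1 region, whose fitted value depends on the prior count and is no bound. The largest differences, such as Gabra6 and Cbln3 below and Ddn above, lie far from the band of genes in grey that did not pass.

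The genes with the largest higher values had few or no counts in the cerebellum. Ddn, which encodes the dendritic protein dendrin, had 347, 253, 432 and 319 CPM in the hippocampus, against a single count in the 4 cerebellum libraries, a ratio of 6322 with a 95% counting interval of 1134 to 249711. Several genes had no count in any cerebellum library. Among them Npy2r, a neuropeptide Y receptor, was at least 321-fold and Fezf2, a transcription factor of deep-layer cortical neurons, at least 261-fold higher in the hippocampus, set against a floor of 3 counts over the group. Npy2r had 77.1, 4.70, 72.6 and 46.3 CPM in the hippocampus, with the library of mouse 14 far below the others. Crhbp, which encodes the binding protein of corticotropin-releasing hormone, Dlx1, a factor of forebrain interneurons, the Nogo receptor relative Rtn4rl2 and Nr2e1, a factor of forebrain neural stem cells, were higher by at least 177-, 173-, 138- and 128-fold. Crym, a thyroid hormone binding protein, and Rgs14, a regulator of G protein signalling in the CA2 field, had 47.9 to 242 and 45.4 to 134 CPM in the hippocampus, against 1 count each in the cerebellum group. Dlx6os1, a noncoding RNA of the Dlx6 locus, and the zinc finger gene Zfp831 were at least 138- and 87.2-fold higher.

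The genes with the largest lower values included markers of granule and Purkinje neurons. Gabra6 was at least 6473-fold and Cnpy1, a regulator of fibroblast growth factor signalling at the midbrain-hindbrain boundary in zebrafish, at least 3232-fold lower in the hippocampus. Ppp1r17, a phosphatase inhibitor of Purkinje cells, had a single count in the 4 hippocampus libraries, against 264, 269.8, 270.3 and 216 CPM in the cerebellum, a ratio of 9861 (1769 to 389555) of cerebellum over hippocampus. Cbln3, which encodes a cerebellin secreted by granule neurons, had 0.226, 0.119, 0.449 and 0 CPM in the hippocampus, against 1075, 955, 991 and 905 CPM in the cerebellum. Hes3, Nrk, Uncx and Skor1 had no hippocampal count and were at least 511-, 480.3-, 305- and 154-fold lower. Crtam, Fat2, Barhl2 and Lhx1 followed, with cerebellar values of 98.2 to 106, 254 to 300.4, 33.3 to 49.2 and 50.3 to 68.0 CPM and hippocampal values of at most 0.566 CPM. The largest genes in both directions were chosen with the same direction in all 4 mice and no overlap between the regions. Their separation is therefore part of the choice and not a result.

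**Figure D3:**
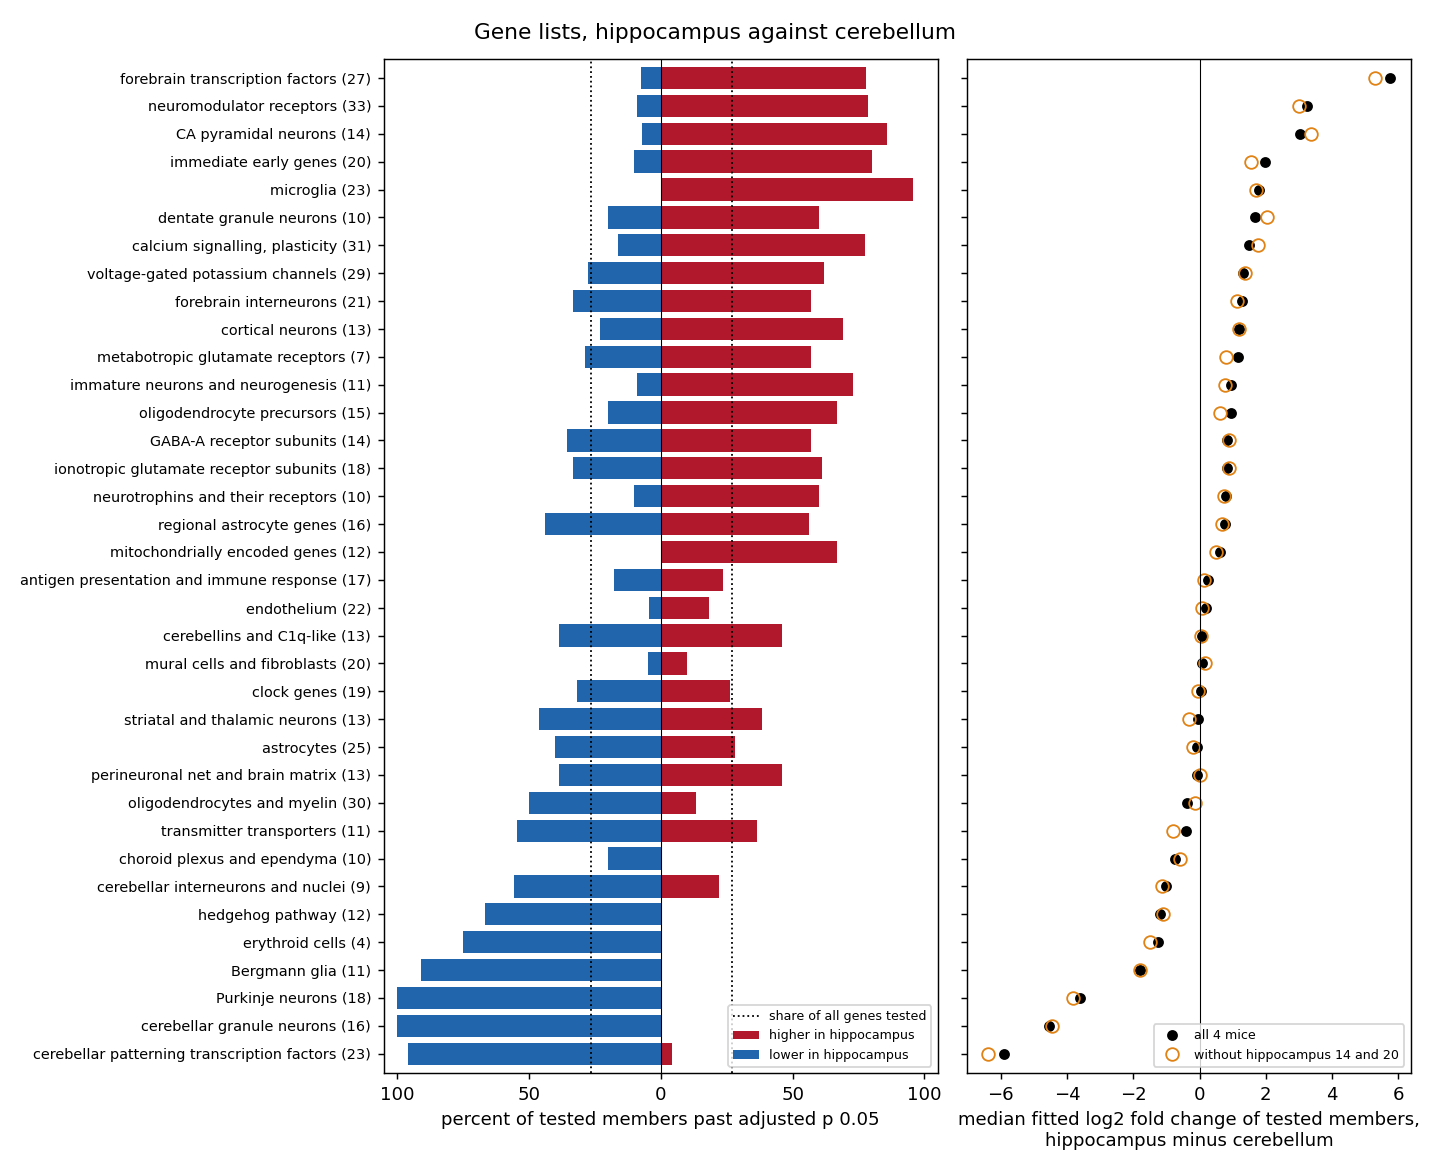
Left, the percent of the tested members of each of 36 gene lists (number tested in brackets) that were higher (red, to the right) or lower (blue, to the left) in the hippocampus at an adjusted p under 0.05, with the share of all genes tested as dotted lines. Right, the median fitted log2 fold change of the tested members with all 4 mice (filled) and without the hippocampus libraries of mice 14 and 20 (open). Cerebellar neuron and Bergmann glia lists lie at the bottom, forebrain factors, neuromodulator receptors and CA pyramidal genes at the top, and microglia on the hippocampal side with 22 of 23.

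All tested markers of cerebellar granule neurons and Purkinje cells were lower in the hippocampus, 16 of 16 with a median of -4.53 and 18 of 18 with a median of -3.61. The granule neuron factor Neurod1, which the dentate gyrus also uses, had 33.6, 14.9, 31.3 and 27.5 CPM in the hippocampus, against 607, 609, 565 and 502 CPM in the cerebellum. Chn2, a Rac GTPase activator, had 21.4, 58.2, 27.0 and 21.5 CPM, against 925, 948, 870.5 and 795 CPM. Their log2 fold changes were -4.34 ± 0.22 and -4.73 ± 0.24.

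Among the Purkinje genes, Car8, a carbonic anhydrase relative that binds the IP3 receptor, had 7.25, 13.9, 4.22 and 14.3 CPM in the hippocampus, against 2253, 2129, 2059 and 1883 CPM in the cerebellum. Pcp2, a modulator of G protein signalling, was lower, at -6.04 ± 0.16 on the log2 scale, the glutamate transporter Slc1a6 at -4.77 ± 0.11, the calcium buffer Calb1 at -2.78 ± 0.14, the IP3 receptor Itpr1 at -2.53 ± 0.12 and Dner at -1.95 ± 0.12. Of the exon length of Pcp2, 51.5% is shared with Pet100 on the other strand, and the unstranded counts cannot tell the 2 apart. Of the 9 tested markers of cerebellar interneurons and nuclei, 5 were lower and 2 higher. Slc6a5, the glycine transporter of inhibitory terminals, had 2 counts in the hippocampus group, against 19.2, 23.0, 25.6 and 31.9 CPM in the cerebellum.

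CA pyramidal genes were mostly higher, 12 of 14 tested with a median of 3.03, and 1 was lower. Spink8 and Iyd, also on the list, were left out by the filter on low counts. Their means were 21.6 and 3.13 CPM in the hippocampus, against 0 and 0.114 CPM in the cerebellum. Neurod6 had 155, 50.2, 194 and 68.8 CPM in the hippocampus, against 5.98, 4.56, 4.67 and 4.62 CPM in the cerebellum. Mpped1 had 227, 239.6, 229 and 248 CPM in the hippocampus, including mouse 14, against 3.45 to 6.16 CPM in the cerebellum. Dkk3, a secreted modulator of Wnt signalling, had 470.3, 347, 477 and 282 CPM, against 18.3 to 26.4 CPM. Of the 10 tested dentate granule genes, 6 were higher and 2 lower, with a median of 1.69. Dsp and Lct were left out by the filter, with means of 11.1 and 17.6 CPM in the hippocampus, against 0.347 and 0.338 CPM in the cerebellum. The median was 2.05 without the hippocampus libraries of mice 14 and 20. The summed level of the list was lowest in those libraries (194 and 207 CPM), so the rise of the median follows from leaving them out. Lists of other forebrain cells were counted beside these, since the library of mouse 14 resembled cortex. Of 13 cortical neuron genes, 9 were higher and 3 lower. Their summed level was 1127 CPM in the hippocampus library of mouse 14, against 505 to 649 CPM in the other 3 and 854 to 885 CPM in the cerebellum. Much of the cerebellar sum came from 2 of the lower genes, Cux1 and Etv1, the latter also on the cerebellar granule list. Cux1 and Etv1 had means of 167 and 514 CPM in the cerebellum, against 64.2 and 103 CPM in the hippocampus. Of 13 genes of striatal and thalamic neurons, 5 were higher and 6 lower, and 3 and 6 without the hippocampus libraries of mice 14 and 20. C1ql2 was higher by 6.12 ± 0.57 with all mice and by 7.00 without these 2 libraries, its lowest in the hippocampus.

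The lists of forebrain and cerebellar transcription factors differed in opposite directions, with exceptions in both. Of 27 tested factors of the forebrain, 21 were higher in the hippocampus and 2 lower, with a median of 5.76, or 4.54 with the 9 genes absent from 1 region set at their bound, and 24 were higher and 1 lower without the hippocampus libraries of mice 14 and 20. Emx1, given above as a marker, was at least 76.5-fold higher. Lhx2 had 43.0, 58.1, 44.2 and 58.9 CPM in the hippocampus, against 0, 0.365, 0 and 1.10 CPM in the cerebellum. Tbr1, a factor of glutamatergic cortical neurons, and Bcl11b, a factor of CA1 and dentate neurons, were higher by 6.97 ± 0.30 and 5.86 ± 0.41.

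Of 23 tested cerebellar patterning factors, 22 were lower in the hippocampus, with a median of -5.91, and 1 was higher. Zic1, a zinc finger factor of granule neuron precursors, had 2.26, 3.33, 2.24 and 3.85 CPM in the hippocampus, against 273, 273, 276 and 202 CPM in the cerebellum. En2, which patterns the midbrain and hindbrain, had 2 counts in the hippocampus group, against 24.6 to 32.4 CPM in the cerebellum. The related homeobox genes Meis1 and Meis2 moved in opposite directions. Meis1 had 3.17, 4.34, 2.06 and 4.41 CPM in the hippocampus, against 153, 142, 127 and 138 CPM in the cerebellum, and Meis2 had 40.1, 72.7, 46.8 and 74.3 CPM, against 3.63, 4.01, 6.32 and 19.6 CPM.

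Interneuron genes were divided, with 12 of 21 higher and 7 lower in the hippocampus. The neuropeptide genes were among the higher ones: Sst, somatostatin, had 214, 221, 238 and 254 CPM in the hippocampus, against 1.45, 5.29, 2.47 and 17.8 CPM in the cerebellum. Vip, Cck and Npy were higher by 6.21 ± 0.39, 2.96 ± 0.14 and 2.29 ± 0.11. The calcium binding proteins went the other way, with Pvalb at 19.7, 25.9, 26.7 and 18.2 CPM in the hippocampus, against 336, 339, 379 and 282 CPM in the cerebellum, and Calb2 lower, at -4.25 ± 0.31. Both are also expressed in cerebellar neurons, Pvalb in Purkinje cells and Calb2 in granule neurons. The GABA-synthesizing enzyme Gad1 was lower in the hippocampus, at -0.84 ± 0.08, and the vesicular GABA transporter Slc32a1 at -1.19 ± 0.11, while the second enzyme, Gad2, had 126, 119.7, 121 and 132 CPM in the hippocampus, against 143, 159, 130.1 and 149 CPM in the cerebellum and did not pass (log2 fold change -0.07 ± 0.09).

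Transcripts of receptor families were composed differently in the regions, with members of 1 family passing in opposite directions. GABA-A receptors are pentamers that usually hold alpha, beta and gamma or delta subunits. Of 14 tested subunits, 8 were higher in the hippocampus and 5 lower. Gabra5, which contributes to extrasynaptic receptors of CA1, had 231, 55.6, 263 and 112 CPM in the hippocampus, against 0.725, 3.10, 1.37 and 6.38 CPM in the cerebellum. The hippocampus libraries of mice 14 and 20 were lowest, and no value overlapped the cerebellum. Gabrd, the delta subunit that pairs with alpha6 in granule neurons and with alpha4 in the dentate gyrus, had 23.4, 70.8, 25.0 and 33.6 CPM in the hippocampus, against 239, 218, 233 and 195 CPM in the cerebellum. 

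The order of the 3 subunits described here differed per kilobase of exon. That scale compares different genes only roughly, since all annotated exons of a gene enter its length. In the hippocampus Gabra5 had 55.7 ± 33.0 CPM per kb and Gabrd 13.3 ± 7.73, and Gabra6 was at 0 (SD, n = 4). In the cerebellum Gabra6 (202 ± 13.4 CPM per kb) stood above Gabrd (77.0 ± 6.74), and Gabra5 was lowest (0.973 ± 0.850). Gabra6 made up 0% of the summed level of the 14 subunits per kb in the hippocampus, against 41.0% in the cerebellum.

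**Figure D4:**
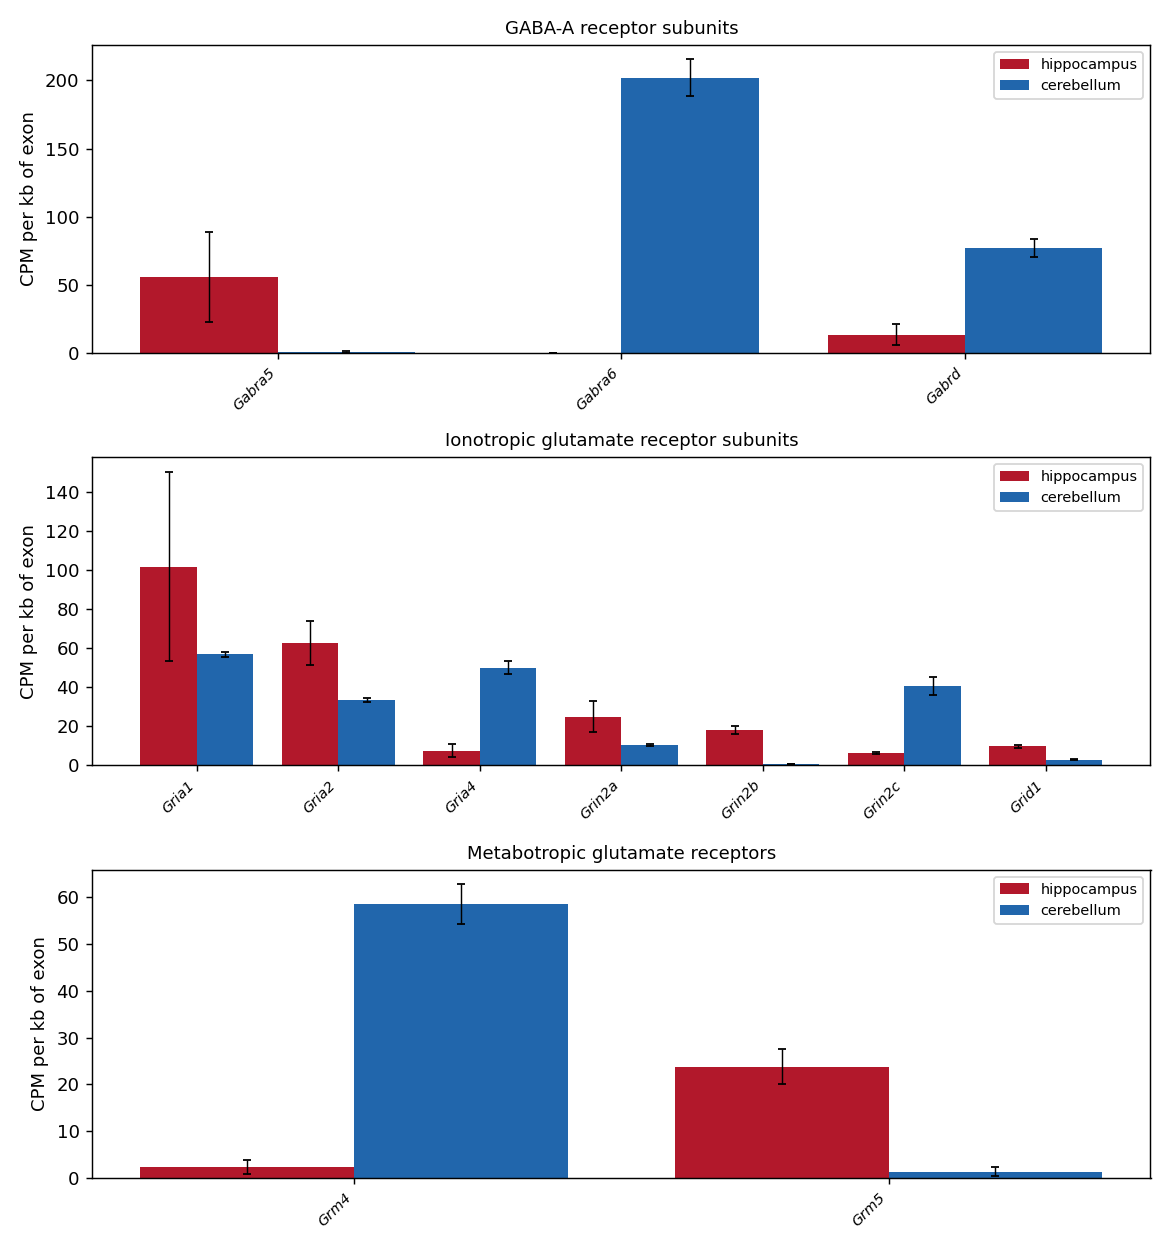
Level per kilobase of exon (CPM per kb, mean and SD over 4 mice) of the GABA-A, ionotropic glutamate and metabotropic glutamate receptor genes described in the text, in the hippocampus (red) and the cerebellum (blue). Gabra6, Gabrd, Gria4, Grin2c and Grm4 stand out in the cerebellum, and Gabra5, Grin2b and Grm5 in the hippocampus.

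Of 18 ionotropic glutamate receptor genes, 11 were higher in the hippocampus and 6 lower. Among the NMDA receptor subunits, Grin2b had 455, 385, 509.7 and 440.0 CPM in the hippocampus, against 19.0, 20.4, 19.5 and 26.4 CPM in the cerebellum. Grin2c, the subunit that replaces Grin2b in maturing granule neurons, had 31.1, 31.5, 28.5 and 36.9 CPM, against 239, 204, 193 and 188 CPM. Grin2a was higher in the hippocampus by 1.32 ± 0.17. Among the AMPA receptor subunits, Gria2, which makes the channel impermeable to calcium, was higher by 1.03 ± 0.12 and Gria4 lower, at -2.68 ± 0.25. Gria1 had 815, 248, 884 and 512 CPM in the hippocampus, against 349, 333, 351 and 343 CPM in the cerebellum. Its value in mouse 14 lay below the cerebellum, and its call (log2 fold change 0.83 ± 0.26, adjusted p = 0.026) was 1.46 without the hippocampus libraries of mice 14 and 20 and was lost when mouse 12, 17 or 20 was left out.

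Synaptic organizers of the cerebellin system, in which cerebellins bridge neurexins and delta receptors, also differed. Grid1 had 59.3, 53.2, 58.7 and 62.8 CPM in the hippocampus, against 17.6, 17.3, 19.5 and 17.8 CPM in the cerebellum. Among the cerebellins, Cbln1 was lower in the hippocampus, at -6.03 ± 0.40, and Cbln2 higher by 3.46 ± 0.84. Cbln2, which is also made by cortical neurons, had 18.1, 112, 15.2 and 23.1 CPM in the hippocampus, against 0.544, 1.09, 0.825 and 18.7 CPM in the cerebellum, so that mouse 20's cerebellum overlapped the hippocampus. Over the 13 tested cerebellin, C1q-like and neurexin genes 6 were higher and 5 lower.

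Of 7 tested metabotropic glutamate receptors, 4 were higher and 2 lower. Grm5, which couples to Gq in hippocampal neurons, had 263, 186, 265 and 259 CPM in the hippocampus, against 7.80, 9.84, 7.97 and 27.9 CPM in the cerebellum. Grm4 of granule neuron terminals was lower, at -4.58 ± 0.30. The other transmitter systems were higher in the hippocampus for most members: of 33 tested receptors for acetylcholine, monoamines, peptides, adenosine and cannabinoids, 26 were higher and 3 lower, with a median of 3.24. Chrm1, the M1 muscarinic receptor, had 298, 203, 293 and 206 CPM in the hippocampus, against 0.544, 0.182, 0 and 2.64 CPM in the cerebellum, and the serotonin receptor Htr1a was higher by 4.46 ± 0.35. The cannabinoid receptor Cnr1 had 316, 169, 265 and 254 CPM in the hippocampus, against 769, 741, 651 and 677 CPM in the cerebellum. The adenosine receptor Adora1 did not pass (273, 255, 279.8 and 199.9 CPM against 281, 256, 276 and 281 CPM).

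Of 29 tested voltage-gated potassium channel genes, 18 were higher and 8 lower. Kcnv1, a silent subunit, had 49.6, 137, 47.3 and 59.5 CPM in the hippocampus, against 2 counts in the cerebellum group, and Kcnq5, an M-current channel, was higher by 5.23 ± 0.19. Kcnc1, a fast delayed rectifier, had 122, 149, 114 and 123 CPM in the hippocampus, against 667, 627, 484 and 576 CPM in the cerebellum, and its modifier Kcng4 was lower, at -4.46 ± 0.15. Of 11 tested transmitter transporters, 4 were higher and 6 lower. Slc17a7, the vesicular glutamate transporter of hippocampal and granule neurons alike, had 787, 769, 777 and 759 CPM in the hippocampus, against 341, 282, 308 and 275 CPM in the cerebellum. Slc17a6, its counterpart in cerebellar nuclei, thalamus and brainstem, did not pass and was high in 1 cerebellum library (12.9, 33.7, 13.2 and 21.5 CPM in the hippocampus, against 16.7, 21.9, 19.8 and 70.3 CPM in the cerebellum). Its log2 fold change was -0.28 with all mice, and it passed as lower, at -0.71, without mouse 14 and, at -1.13, without the hippocampus libraries of mice 14 and 20, which made 7 of the 11 transporters lower.

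Genes of calcium signalling at hippocampal synapses were mostly higher, 24 of 31 with a median of 1.48, and 5 were lower. Camk2a, the alpha chain of the calcium/calmodulin kinase of synaptic plasticity, had 3342, 2602, 3667 and 3014 CPM in the hippocampus, against 76.2, 76.9, 80.6 and 114 CPM in the cerebellum. Nrgn, neurogranin, a calmodulin-binding protein of spines, had 675, 701, 714 and 686 CPM, against 0.907, 2.55, 1.65 and 26.8 CPM. Hpca, hippocalcin, had 1437, 397, 1733 and 708 CPM, against 46.4, 50.5, 49.2 and 64.2 CPM. The delta chain of the same kinase went the other way: Camk2d had 55.9, 189, 51.6 and 231 CPM in the hippocampus, against 419, 388, 371 and 378 CPM in the cerebellum, and Camk4 of granule neurons was lower, at -2.12 ± 0.13.

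Immediate early genes, which neurons transcribe within minutes of activity, were higher for 16 of 20 members and lower for 2, with a median of 1.97. Egr3 had 75.4, 189, 78.7 and 67.2 CPM in the hippocampus, against 0, 0.365, 0 and 0.440 CPM in the cerebellum. Arc, a regulator of AMPA receptor uptake, had 148, 894, 316 and 216 CPM, against 32.3, 29.3, 29.1 and 31.9 CPM, and Egr1 had 159, 710.1, 209.6 and 156 CPM, against 40.3, 42.5, 37.1 and 58.9 CPM. Mouse 14 was highest for all 3 genes, and the regions did not overlap. Without the hippocampus libraries of mice 14 and 20 the median was 1.56, with 16 higher and 3 lower. Not every gene of the class followed: Fos had 14.2, 86.9, 29.3 and 34.7 CPM in the hippocampus, against 33.0, 60.1, 47.6 and 57.6 CPM in the cerebellum and did not pass, but was lower, at -0.74, without mouse 14 and, at -0.99, without these 2 libraries. Dusp1, a phosphatase of the same early response, was lower, at -0.99 ± 0.22, at -1.74 without these 2 libraries, and not past the threshold in the fit without the mouse as a block.

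The promoters of Nr4a1, an early nuclear receptor that was higher in the hippocampus by 1.65 ± 0.19, and of Fos are shown because both genes are known targets of CREB, and Nr4a1 passed while Fos did not with all mice. Both are the 250 bases before the RefSeq start (GRCm38.p6) on the plus strand, Nr4a1 at chr15:101266596-101266845 and Fos at chr12:85473640-85473889. Capitals mark TGACG or its reverse complement CGTCA, the CREB half-site.
Nr4a1: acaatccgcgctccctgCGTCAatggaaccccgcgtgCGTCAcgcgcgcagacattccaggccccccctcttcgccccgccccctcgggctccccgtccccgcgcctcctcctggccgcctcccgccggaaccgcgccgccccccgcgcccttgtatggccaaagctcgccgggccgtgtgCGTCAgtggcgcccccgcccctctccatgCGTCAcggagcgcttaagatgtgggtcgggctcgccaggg
Fos: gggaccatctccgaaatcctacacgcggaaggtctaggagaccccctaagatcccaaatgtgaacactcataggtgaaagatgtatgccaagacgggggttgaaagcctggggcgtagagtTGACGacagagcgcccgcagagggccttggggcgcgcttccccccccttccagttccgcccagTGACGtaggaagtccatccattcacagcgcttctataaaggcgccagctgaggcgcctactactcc
The half-site occurred 4 times in the window of Nr4a1 and 2 times in that of Fos. It was found in 17.9% of all promoter windows, in 27.1% of those of the genes tested and in 11 of the 15 windows found for the early genes.

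Astrocyte genes did not move as a class. Of 25 tested, 7 were higher and 10 lower in the hippocampus, with a median of -0.07. Gja1, which encodes the gap junction protein connexin 43 found in astrocytes of both regions, had 271, 238, 294 and 318 CPM in the hippocampus, against 279, 297, 269 and 308 CPM in the cerebellum. Its log2 fold change was 0.10 ± 0.10, with an adjusted p of 0.43. The 2 glial glutamate transporters went opposite ways. Slc1a2, also called GLT-1, had 1473, 1896, 1567 and 1684 CPM in the hippocampus, against 479, 534, 540.0 and 607 CPM in the cerebellum, and Slc1a3, also called GLAST, had 745, 706, 729 and 904 CPM, against 1487, 1465, 1396 and 1406 CPM.

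The water channel Aqp4 was among the lower astrocyte genes, with 154, 129, 133 and 162 CPM in the hippocampus, against 389.7, 366, 343 and 381 CPM in the cerebellum. Gpr37l1, an orphan receptor, and S100b, a calcium-binding protein, were lower, at -1.23 ± 0.08 and -1.75 ± 0.13. Gfap, the intermediate filament protein, had 496, 229, 448 and 369 CPM in the hippocampus, against 172, 176, 199.6 and 236 CPM in the cerebellum, with mouse 14 below the highest cerebellar value (log2 fold change 1.08 ± 0.18). Genes of Bergmann glia were lower for 10 of 11 tested, with a median of -1.81. Dao, the enzyme that degrades D-serine, had 2 counts in the hippocampus group, against 26.8, 22.4, 25.6 and 22.6 CPM in the cerebellum. The growth factor Gdf10 had 9.17, 6.07, 11.3 and 7.71 CPM, against 139.8, 147, 132 and 124 CPM, and the protease inhibitor A2m was lower, at -5.59 ± 0.29.

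Of 16 genes that vary between astrocytes of different regions, 9 were higher and 7 lower. Mfge8, an opsonin, was higher in the hippocampus by 1.56 ± 0.14, while Agt, angiotensinogen, and Itih3 were lower, at -1.65 ± 0.21 and -1.35 ± 0.10. Slc6a11, the GABA transporter GAT-3, had 88.3, 86.5, 88.4 and 121 CPM in the hippocampus, against 30.6, 35.9, 36.8 and 98.1 CPM in the cerebellum, where mouse 20 overlapped the hippocampus. The glycine transporter Slc6a9 was lower, at -1.51 ± 0.10.

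**Figure D5:**
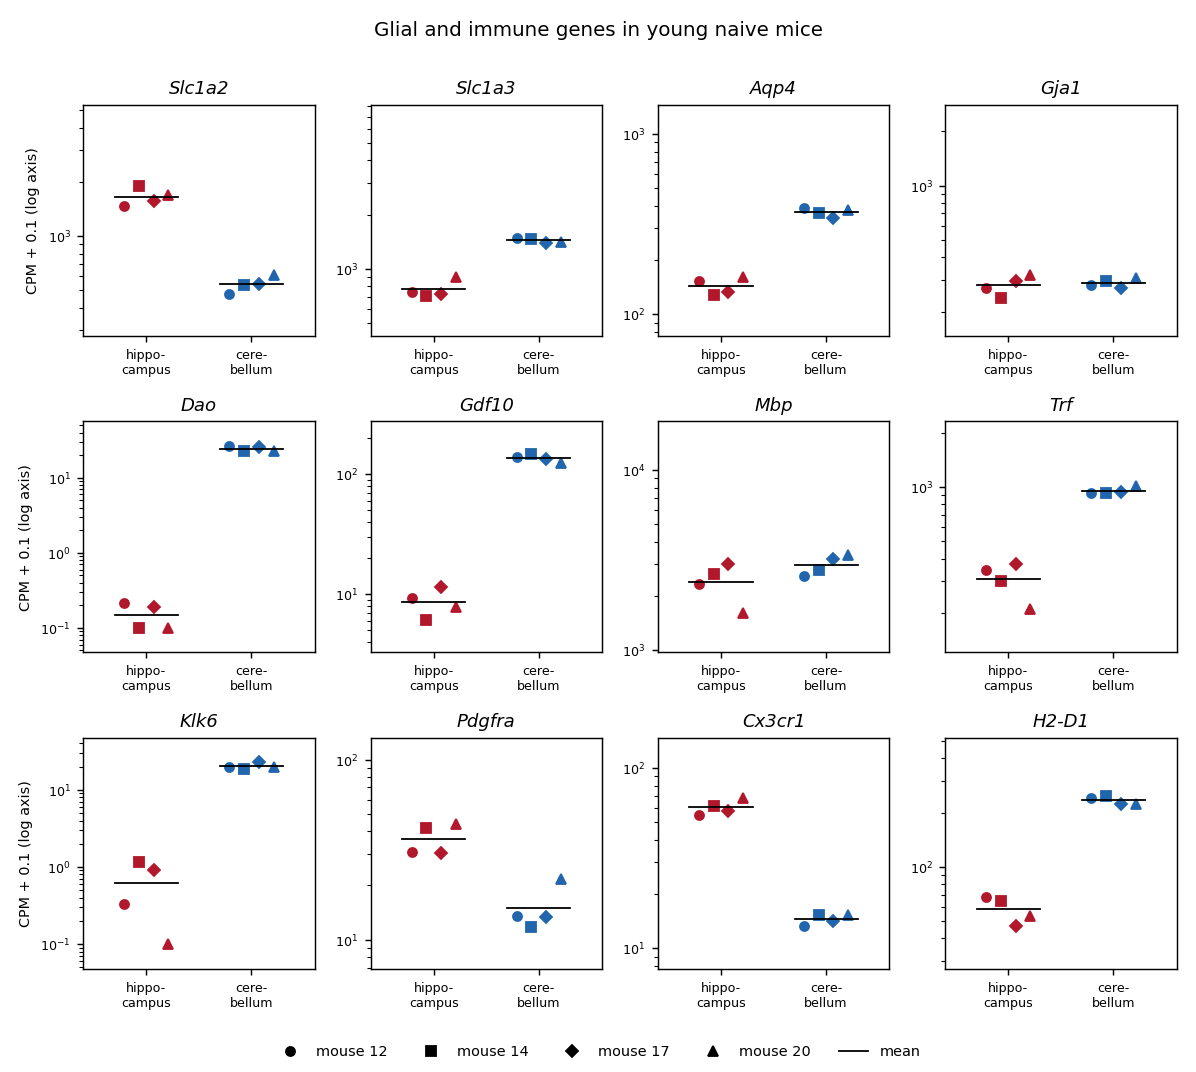
CPM plus 0.1 (log axis) of 12 glial and immune genes in each library of the hippocampus (red) and the cerebellum (blue), 1 symbol per mouse, with the mean as a line. Gja1 and Mbp overlap between the regions, the astrocyte transporters Slc1a2 and Slc1a3 differ in opposite directions, Dao, Gdf10, Trf, Klk6 and H2-D1 are lower in every hippocampus library, and Pdgfra and Cx3cr1 are higher in each.

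Oligodendrocyte genes were split by gene, with 4 of 30 higher, 15 lower and 11 not past the threshold, and a median of -0.36. The main myelin gene Mbp had 2338, 2651, 2994 and 1615 CPM in the hippocampus, against 2583, 2775, 3214 and 3359.9 CPM in the cerebellum and did not pass (log2 fold change -0.19 ± 0.16). Mag and Cnp, also of myelin, were lower, at -0.49 ± 0.15 and -0.51 ± 0.12. Larger differences were found in genes that are not structural parts of myelin. Klk6, a serine protease, had 0.226, 1.07, 0.808 and 0 CPM in the hippocampus, against 19.8, 18.6, 22.5 and 19.6 CPM in the cerebellum. Nkx6-2, a transcription factor of the lineage, had 8.72, 12.9, 11.5 and 8.26 CPM, against 49.1, 52.3, 49.5 and 50.3 CPM. Trf, transferrin, had 344, 300.4, 372 and 209 CPM, against 919, 921, 939.8 and 1015 CPM, and Gm20425, an entry on the same strand that shares 63.5% of its exon length, had nearly the same values (a mean of 299 CPM in the hippocampus, against 905 CPM for the cerebellum), so that the 2 cannot be told apart.

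Opalin, Olig1 and Olig2, the last 2 being factors of the whole lineage, were among the 4 higher oligodendrocyte genes, by 0.75 ± 0.18, 0.53 ± 0.11 and 0.59 ± 0.14. In CPM, Olig1 and Olig2 were higher in all 4 mice and Opalin in 3. The hippocampus of mouse 20 had the lowest summed level of the list, 4586 CPM, against up to 7951 CPM in the other hippocampus libraries and 8038 to 9970 CPM in the cerebellum. Without the hippocampus libraries of mice 14 and 20 the list had 6 higher and 12 lower members and a median of -0.13. At 18 months the list had 18 higher and 6 lower members and a median of 0.39, and no member passed the edgeR test of the difference between the ages, although Trf was among the 5 genes that DESeq2 called. Precursor genes leaned the other way from myelin in the young mice, with 10 of 15 higher and 3 lower, and a median of 0.94, against 9 higher, 2 lower and a median of 0.61 without the hippocampus libraries of mice 14 and 20. Pdgfra, the growth factor receptor of precursors, had 30.5, 41.3, 30.1 and 43.5 CPM in the hippocampus, against 13.4, 11.7, 13.2 and 21.5 CPM in the cerebellum. Cspg4 and Gpr17 were higher by 1.45 ± 0.13 and 1.34 ± 0.10.

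Microglial genes were nearly all higher. Of 23 tested, 22 were higher in the hippocampus and 0 lower, with a median of 1.81, and the summed level of the list was 663 to 786 CPM in the hippocampus, against 230.1 to 255 CPM in the cerebellum. Cx3cr1, the fractalkine receptor, had 54.6, 61.3, 57.9 and 67.7 CPM in the hippocampus, against 13.2, 15.1, 14.0 and 15.2 CPM in the cerebellum. P2ry12, the purinergic receptor that guides microglial processes, had 41.6, 42.6, 47.0 and 45.7 CPM, against 11.4, 12.2, 8.80 and 9.89 CPM. The groups did not overlap for either gene, and mouse 14 lay with the other hippocampus libraries. The largest change among the 22 was that of Fcrls at 2.91 ± 0.19. Mrc1, a marker of perivascular macrophages and not of microglia, was the member that did not pass (log2 fold change 0.16 ± 0.36). At 18 months 22 members were again higher and 0 lower, with a median of 1.32.

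Immune genes outside the microglial list showed no common direction. Of 17 tested genes of antigen presentation and interferon response, 4 were higher and 3 lower. Both counts were below the shares of all genes tested (26.9% and 26.4%). Without mice 14 and 20, 7 were higher and 3 lower, beside 4879 and 4726 of all 16479 genes in that fit. H2-D1, a class I histocompatibility gene, had 67.6, 64.1, 47.0 and 53.4 CPM in the hippocampus, against 241, 247, 222 and 223 CPM in the cerebellum, while its neighbour in function H2-K1 had 30.0, 28.4, 22.1 and 33.6 CPM, against 28.8, 31.0, 33.8 and 31.9 CPM and did not pass. Reads of class I genes can be split between near-identical copies, so that both values are uncertain. The complement gene C4b, which has a close copy in C4a, was higher by 1.57 ± 0.27. At 18 months the list had 1 higher and 9 lower members.

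Few vessel genes passed the test. Of 22 tested endothelial genes, 4 were higher and 1 lower, below the shares of all genes tested. Cldn5, the claudin of the blood-brain barrier, had 27.5, 28.7, 22.3 and 19.8 CPM in the hippocampus, against 32.1, 29.3, 22.3 and 22.6 CPM in the cerebellum, and Pecam1 had 15.4, 18.6, 14.4 and 14.9 CPM, against 17.6, 17.7, 18.1 and 20.4 CPM. Neither passed, with log2 fold changes of 0.04 ± 0.11 and -0.05 ± 0.14. Egfl7, a secreted endothelial factor, was higher by 1.39 ± 0.13, and Ocln, occludin, lower, at -0.94 ± 0.18. Of 20 genes of mural cells and fibroblasts, 2 were higher and 1 lower, the lower one being the collagen gene Col1a2 (-1.18 ± 0.31). The low count of mural and fibroblast genes depended in part on mice 14 and 20. Without both mice, 7 mural and fibroblast genes were higher and 1 lower, and 6 endothelial genes were higher and 1 lower. Of all 16479 genes tested in that fit, 4879 were higher and 4726 lower. Without their hippocampus libraries alone, 4 mural and fibroblast genes were higher and 2 lower, and the endothelial counts stayed at 4 and 1. Of all 16271 genes tested there, 4994 were higher and 4841 lower.

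Choroid plexus genes varied within each region. Ttr, transthyretin, had 28.9, 4.52, 217 and 18.2 CPM in the hippocampus, against 4.71, 981, 12.1 and 315 CPM in the cerebellum. The cerebellum libraries of mice 14 and 20 and the hippocampus library of mouse 17 were high, and Ttr did not pass (log2 fold change -1.0 ± 2.3). Of 10 tested genes of the plexus and ependyma, 0 were higher and 2 lower, both below the shares of all genes tested (26.9% and 26.4%). The factor Otx2, which granule neurons of the posterior cerebellum also express, was among the lower ones (-3.72 ± 0.60). With both regions of mice 14 and 20 left out, 5 of the 10 were higher and 2 lower, beside 4879 and 4726 of all 16479 genes in that fit. The median of the list was then 0.35 in place of -0.73, and Ttr passed as higher, by 3.84. At 18 months 0 were higher and 8 lower, with a median of -2.27. The summed level of the list was 157 to 556 CPM in the hippocampus, against 189 to 1979 CPM in the cerebellum, and its part in other results was not tested. Of 4 erythroid genes, 3 were lower, 0 without the hippocampus libraries of mice 14 and 20 and 3 without both mice. The lower share of all genes was 26.4%, with 4841 of 16271 and 4726 of 16479 genes in the latter fits.

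Genes of development and signalling gave further regional lists. Of 12 hedgehog pathway genes, 8 were lower in the hippocampus and 0 higher, with a median of -1.20. Ptch1, the receptor and target of the pathway, had 29.7, 38.6, 29.0 and 38.0 CPM in the hippocampus, against 153, 159, 162 and 150.2 CPM in the cerebellum, the coreceptor Boc was lower, at -2.49 ± 0.15, and the target factor Gli1 at -2.57 ± 0.40. Of 11 genes of immature neurons and neurogenesis, 8 were higher and 1 lower. Dcx, doublecortin, had 13.7, 34.0, 12.8 and 18.2 CPM in the hippocampus, against 3.81, 4.19, 5.50 and 3.96 CPM in the cerebellum, with the highest value in mouse 14. The Notch target Hes5 was higher by 3.39 ± 0.19, and Eomes, which marks intermediate progenitors in the dentate gyrus and unipolar brush cells in the cerebellum, was lower, at -7.96 ± 0.42.

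Of 10 tested neurotrophins and receptors, 6 were higher and 1 lower. Bdnf had 62.9, 78.5, 68.4 and 41.8 CPM in the hippocampus, against 38.6, 40.3, 32.2 and 31.7 CPM in the cerebellum. Ngfr, the p75 receptor, was lower, at -2.23 ± 0.45.

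Transcripts of brain matrix genes differed between the regions in both directions. Of 13 tested genes 6 were higher and 5 lower. Ncan, neurocan, had 362, 420.3, 350.0 and 432 CPM in the hippocampus, against 31.0, 35.5, 33.0 and 48.4 CPM in the cerebellum, and the link protein Hapln1 was higher by 2.35 ± 0.20. Tnc, tenascin C, had 8.38, 7.85, 7.18 and 10.5 CPM, against 32.1, 33.2, 28.0 and 25.5 CPM. Of 19 clock genes 5 were higher and 6 lower, near the shares of all genes tested (26.9% and 26.4%). Npas2 had 28.6, 55.0, 26.3 and 41.8 CPM in the hippocampus, against 5.83 to 6.16 CPM in the cerebellum, whereas its paralog Clock was lower, at -0.59 ± 0.10. Cry1 was lower, at -2.01 ± 0.12, and Rora, which is also a factor of Purkinje cells, at -2.64 ± 0.23. The time of day of the dissections was not used here.

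Transcripts encoded by the mitochondrial genome were higher for 8 of 12 tested genes and lower for 0, with a median of 0.60. mt-Co1, a subunit of cytochrome oxidase, had 8242, 10078, 8945 and 9698 CPM in the hippocampus, against 6691, 6894, 7018 and 6886 CPM in the cerebellum. These transcripts held 2.17 to 2.94% of the counts of a hippocampus library and 1.66 to 1.83% of those of a cerebellum library.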

How the data were processed

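Bulk mRNA-seq counts per gene were deposited by the authors as 1 table for the whole series, with whole-number counts that were not normalized. Per the labels' protocols, RNA was extracted with RNeasy kits and made into libraries with Smart-Seq2 and Nextera XT, which do not mark strand, so overlapping genes on either strand share reads. Per the submitters' processing notes, Trim Galore 0.3.7, STAR 2.5.3a, DESeq2 and the build GRCm38 were used; the counting tool and the annotation are not given in the sources used here.

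Samples were grouped by their labels, and columns matched by sample title. Of 35486 genes, 10778 had 0 counts in the 8 libraries. Genes were kept by filterByExpr (count minimum 10, total minimum 15), which left 15586. The test was edgeR's quasi-likelihood test (edgeR 4.0.16, R 4.3.3) with TMM scaling, the mouse as a block and Benjamini-Hochberg adjustment over all genes tested, two-sided, at 0.05. Mice are separate animals, and the same animal number in both regions marks the same animal. That pairing comes from the labels; deviations from the region means correlated by 0.039, -0.027, 0.013 and 0.057 within mice 12, 14, 17 and 20. The difference between ages was tested as an interaction. Levels per kb divide CPM by exon length. No extraction or sequencing batch was used.

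The members and lists were chosen with earlier results of these data known, so counts over a list are descriptions, to be read against the shares of all genes. Named genes were the 12 largest in each direction with a mean of at least 5 CPM and up to 4 per direction in each list. The 12 also needed the same direction in every mouse and regions that did not overlap. Symbols of clones or gene models were left out of the 12. Markers and genes added to show contrasts were chosen after their values were seen. A gene with 0 counts in a region was set at a floor of 3 counts over the group (0.0777 CPM for hippocampus, 0.156 CPM for cerebellum); intervals and floors cover counting error only. Alternatives were DESeq2 1.42.0, other scalings, other filters, a test against a minimum fold, no block, the cortex in the fit, and leaving out mice or the hippocampus libraries of mice 14 and 20. Some genes are not reported here.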

Additional observations from a re-analysis of the deposited data

Results flagged for a closer look

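Among the genes named, 263 groups of 4 libraries were examined for a single library far from the other 3 (Dixon's test on log2 of CPM plus 0.5, critical value 0.829), and 17 were found; chance gives about 1 in 20 groups. In the hippocampus of mouse 14, Crym had 47.9 CPM (others 198 to 242) and Grm5 186 CPM (259 to 265). In the same library Emx1 had 20.9 CPM (8.38 to 9.36), Grm4 26.6 CPM (9.40 to 9.91) and Egr3 189 CPM (67.2 to 78.7).

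In the hippocampus of mouse 20, Slc6a11 had 121 CPM, Itih3 27.5 CPM and Mag 88.1 CPM, against 136 to 149 CPM for Mag in the other 3 hippocampus libraries. In the hippocampus of mouse 17, Slc32a1 had 20.5 CPM (17.6 to 18.0).

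In the cerebellum of mouse 20, 7 genes stood apart. Cbln2 had 18.7 CPM (others 0.544 to 1.09), Slc6a11 98.1 CPM (30.6 to 36.8), Mpped1 6.16 CPM (3.45 to 3.65) and Camk2a 114 CPM (76.2 to 80.6). Ppp1r17 had 216 CPM (264 to 270.3), Zic1 202 CPM (273 to 276) and Clock 97.0 CPM (101 in each). In the cerebellum of mouse 12, Neurod6 had 5.98 CPM (4.56 to 4.67).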

How the results depend on the processing

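Over the alternatives run, the counts of 4185 higher and 4109 lower genes stayed within 1.5 times, except in a test against a minimum fold (glmTreat), which called 1266 higher and 900.0 lower, in place of 1912 and 1596 past 2-fold, and 169 higher and 91 lower list members in place of 257 and 163. The fit with no replicate block (the mouse) called 4383 and 4298, and leaving out 1 mouse gave 3375 to 4265 higher and 3020 to 4175 lower. Mice paired by number did not deviate together, as the values given with the methods show. For a different regional difference between the ages, DESeq2 called 5 genes, named here after their values were seen: A330023F24Rik, Tpbg, Gm20425, Trf and Trank1. Without mice 14 and 20 edgeR called 88. The cause of these differences was not tested.

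Of the named genes' values under the alternatives, 2136 kept their direction and call, 27 lost the call, 5 gained it and 21, from 10 genes, changed sign. Leaving out 1 mouse gave -0.79 to 0.21 for Prox1, -0.71 to 0.075 for Slc17a6, -0.028 to 0.13 for Adora1, -0.29 to 0.039 for Mbp, -0.28 to 0.28 for Mrc1 (mice 12, 17 and 20 only), -0.078 to 0.14 for H2-K1, -0.17 to 0.0022 for Pecam1 and -3.53 to 1.05 for Ttr. Without mice 14 and 20, Prox1 was 0.59, Mbp 0.0104 and Ttr 3.84. Without their hippocampus libraries alone, Prox1 was 0.56, Mbp 0.00044 and Mrc1 -0.10. With upper-quartile scaling Adora1 was -0.023 and Cldn5 -0.0059, and with library totals Adora1 was -0.12, Cldn5 -0.10 and Gja1 -0.047. None of these genes passed the test with all mice; Prox1 passed in both of the settings without mice 14 and 20 or their hippocampus libraries, Ttr without both mice, and Slc17a6 without mouse 14 (-0.71) and without the 2 hippocampus libraries (-1.13). At the lowest depth, 1816018 counts, genes near the floor were not resolved.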
